A study of Mus musculus with 4 samples.

Results

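The cells described here were GABAergic neuroblasts (NBs) without transcripts of division genes, from the dorsal wall of the ventricular-subventricular zone (V-SVZ), the germinal layer along the lateral ventricle, at postnatal day 2 (P2) and day 22 (P22). They were defined by their transcripts. Of the barcodes with 2000 to 8000 detected genes and under 10% mitochondrial counts, those were taken in which the normalized level of Dcx, ln(1 + 10000 × counts / cell total), lay above 1, with at least 1 count of Gad1 or Gad2 and at least 1 of Dlx1, Dlx2, Dlx5 or Dlx6. Cells with any count of Mki67, Top2a, Lhx6, Nkx2-1, Eomes or Neurod6 were left out. This gave 1288 of 4027 kept cells at P2 and 1053 of 4231 at P22, together 2341 of 8258, out of 19860 kept cells in the 4 libraries of the series. Cells that passed the gate are called members below.

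Every library came from wild-type OF1 mice with no transgene and no treatment, whose dorsal V-SVZ was microdissected, dissociated with papain and loaded on the 10x Genomics platform (3′ version 3 chemistry). There, molecules are told apart by a unique molecular identifier (UMI), and UMIs are what is counted. Tissue of 2 mice was pooled per time point. P2 and P22 had 1 library each, so that age, animals, library and sequencing cannot be told apart, and the values below carry no test. P12, with 2 libraries, served only for side values, because it held 50 such cells in replicate 1 and 6 in replicate 2.

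NBs are young neurons on the move. Those born in the V-SVZ travel along the rostral migratory stream to the olfactory bulb and turn into local interneurons. Proteins of the Dlx family are homeodomain factors of the GABAergic lineage, Gad1 and Gad2 encode the enzymes that make GABA from glutamate, and Dcx encodes doublecortin, a microtubule protein of migrating neurons. In the embryo the ganglionic eminences, which also express Dlx genes, give rise to the projection neurons of the striatum and, from the caudal ganglionic eminence (CGE), to cortical interneurons, with other factors than the bulb lineage.

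The genes of the gate give no finding, and their levels only describe the cells. Dcx was at 660 CPM (UMIs of the gene per 1000000 UMIs of all members of an age) at P2 and 611 CPM at P22, Gad2 at 646 and 427 CPM, Dlx5 at 504 and 411 CPM, and Dlx6 at 52.1 and 45.8 CPM. Markers outside the gate also describe the cells, though their values depend in part on how cells were chosen. The reference below was taken without Dlx counts, and the gate left out cells with Eomes or Neurod6. Sp9, a zinc finger factor of the GABAergic lineage, had a UMI in 96.3% of the P2 and 99.0% of the P22 cells, against 8.30% and 7.42% of a reference of Slc1a3-positive cells without Dcx, Gad or Dlx counts (494 and 633 cells, with medians of 16600.5 and 9415 UMIs). Of 9 glutamatergic markers, the sum over all members was 54 UMIs at P2 and 14 at P22, and Slc17a7 was at 0 in both.

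Just inside the Dcx limit (normalized level 1 to 1.25) lay 102 P2 and 86 P22 cells, and just below it (0.75 to 1) lay 91 and 63 cells that met every other condition. The members had a median of 10134.5 UMIs and 3217 genes at P2 and of 9324 UMIs and 3027 genes at P22, with sums of 14169169 and 10372633 UMIs. At these sums 1 UMI is worth 0.0706 CPM at P2 and 0.0964 CPM at P22. No member barcode was shared between libraries, and 5 barcodes of any kind were shared by P2 and P22. The labels give males for both ages, and the methods state that a female was found among the P2 mice. At P2, 355 members had an Xist UMI and none of 4 Y-linked genes, 679 the reverse, 35 both and 219 neither. No P22 member had an Xist UMI, and 754 had a Y-linked one. Values of P2 are therefore also given for the Xist-positive and the Y-positive cells, which come from different animals but share the library. These P2 groups differed by at least 2-fold in 3 genes that were higher (0.0494% of 6067) and 5 that were lower (0.0824%) in the Xist-positive cells. Ebf1, Calb2, Syt4 and Rxrg were among the lower ones, and the higher ones were Tsix, Eif3j2 and Dynlt1b. These genes were named after their values were seen.

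The share of kept cells that passed the gate was 32.0% at P2 (95% exact binomial interval 30.5 to 33.4) and 24.9% at P22 (23.6 to 26.2). Intervals in this text cover counting error only. Cells with the same profile but with an Mki67 or Top2a UMI numbered 449 at P2 and 656 at P22, so that 2.87 non-dividing cells stood beside each dividing one at P2 and 1.61 at P22. At P12 the share was 0.714% in replicate 1 (0.530 to 0.940) and 0.131% in replicate 2 (0.0479 to 0.284). Non-dividing cells per dividing cell were 0.124 in replicate 1 (50 and 403 cells) and 1.2 in replicate 2 (6 and 5 cells), so that libraries of 1 age differed widely. P12 thus did not lie between P2 and P22, and its libraries held few of these cells. How far dissection and dissociation move these shares was not tested.

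Levels below are UMIs of all members of an age summed, so that fewer cells with a transcript and less RNA per cell cannot be told apart from them alone. Genes of the immature neuron were close at both ages. Of the 26 genes in that list, all measured, 24 lay within 2-fold, and their median log2 ratio of P22 over P2 was -0.04, beside -0.02 over all 6061 genes with a mean of at least 20 CPM. Tuba1a, the main tubulin of young neurons, was at 14319 CPM at P2 and 13817 CPM at P22. Sox11, a factor of newborn neurons, was at 2218 and 2663 CPM, and Igfbpl1, a marker of NBs, at 1348 and 1462 CPM. The exceptions were Gap43, a growth cone protein, with 408 CPM at P2 and 131 CPM at P22, and Elavl4, a neuronal RNA-binding protein, with 211 and 450 CPM. Neither passed 2-fold without the P2 cells with striatal genes described below, where the log2 ratio was -0.58 instead of -1.64 for Gap43 and 0.92 instead of 1.09 for Elavl4.

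Over the 6061 measured genes, 74 were at least 2-fold higher at P22 (1.22%) and 168 at least 2-fold lower (2.77%), gate, sex-linked and mitochondrial genes aside. The counting interval of the ratio left out 1 for every one of these 242 genes. With these sums, the minimum of 20 CPM and the 2-fold limit allow no other outcome, so this adds no support. A gene that passes the minimum through the age where it is high tends to differ for that reason. So it was for 97 of the 168 lower genes, at 20 CPM or more at P2 alone, and for 34 of the 74 higher ones, at 20 CPM or more at P22 alone. In the dividing cells of the same gate, 24 genes were at least 2-fold higher (0.396% of 6056) and 39 lower (0.644%). In all other kept cells, 166 were higher (2.49% of 6664) and 134 lower (2.01%). All 168 lower genes of the members had the same sign in the dividing cells, and 82 were past 2-fold there too. Of the 74 higher genes, 72 had the same sign in the dividing cells and 14 were past 2-fold. In the other kept cells, 145 of the 168 and 66 of the 74 had the same sign, with 70 and 16 past 2-fold the same way. The share of all measured genes with the same sign is not given beside these counts. These comparisons also share their libraries with that of the members, so their values are only set side by side.

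**Figure D1:**
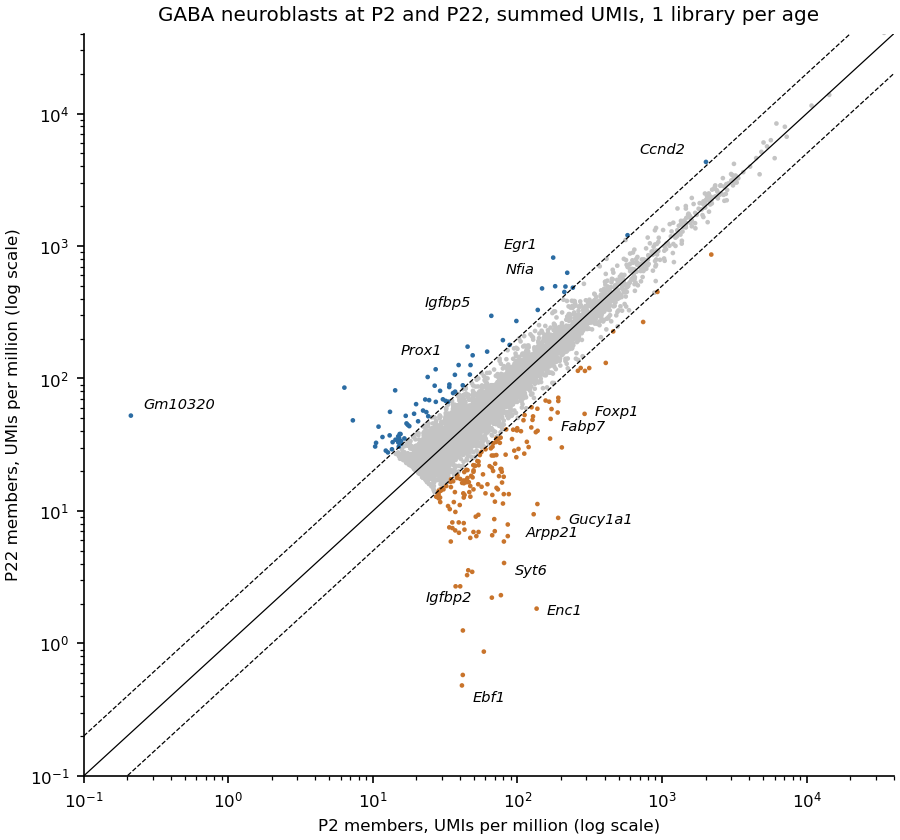
Each point is one of the 6061 measured genes, with its level in P2 members (x axis, CPM, log scale) against P22 members (y axis, same unit and scale); the solid line marks equal levels, the dashed lines 2-fold, blue points are at least 2-fold higher and orange points at least 2-fold lower at P22. Most genes follow the line, the 168 lower genes spread far below it, and Gm10320, with 0 UMIs at P2, is drawn at the level of 3 UMIs.

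The 15 genes with the lowest ratio were Ebf1, Enc1, Grm5, Lypd1, Chl1, Cxcl14, Igfbp2, Gucy1a1, Syt6, Pnoc, Chd5, C130073E24Rik, Arpp21, Camk2n1 and Tmem158. Ebf1, a transcription factor of striatal projection neurons (GRCm38, chromosome 11, 44617317 to 45008091), was at 41.3 CPM at P2 (38.0 to 44.8) and 0.482 CPM at P22 (0.157 to 1.12), but only 1.79% of the P2 cells held it. Enc1, an actin-binding protein of neurons, was at 136 CPM (130 to 142) and 1.83 CPM (1.10 to 2.86), with a UMI in 13.4% and 1.61% of cells. Grm5, a metabotropic glutamate receptor, was at 41.9 and 0.578 CPM, and Gucy1a1, a subunit of the nitric oxide receptor guanylate cyclase, at 191 and 8.87 CPM. In 12 of the 15 genes, the 5% of P2 cells with the most UMIs of the gene held over 50% of them. For these genes the sum over cells does not describe the typical cell. The exceptions were Igfbp2 (34.1%), Syt6 (40.0%) and Chd5 (43.8%).

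The most widely spread of these genes was Igfbp2, a secreted protein that binds insulin-like growth factors. It was at 66.5 CPM at P2 (62.3 to 70.9) and 2.22 CPM at P22 (1.41 to 3.33), 30.0-fold lower (counting interval 19.9 to 47.5), with a UMI in 36.3% and 1.71% of cells. Syt6, a synaptotagmin, was at 80.7 and 4.05 CPM and in 32.0% and 3.32% of cells. Chd5, a chromatin remodeller of neurons, was at 48.6 and 3.47 CPM. Arpp21, a cAMP-regulated phosphoprotein, at 129 and 9.45 CPM, and Pnoc, the precursor of the peptide nociceptin, at 40.2 and 2.70 CPM, were among the concentrated genes, with 54.1% and 54.5% of their P2 UMIs in the top 5% of cells. Both animals of P2 had Syt6 and Igfbp2. Syt6 was at 82.7 CPM in Y-positive and 84.6 CPM in Xist-positive cells, and Igfbp2 at 69.4 and 55.9 CPM. Ebf1 was at 53.8 CPM in the Y-positive and 17.8 CPM in the Xist-positive cells, a 2-fold or larger gap that Syt6 and Igfbp2 did not show.

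In P12 replicate 1, whose 50 cells held 654708 UMIs, Igfbp2 was at 4.58 CPM (0.945 to 13.4) and Syt6 at 13.7 CPM (6.29 to 26.1), both nearer to P22. Arpp21 was at 56.5 CPM (39.8 to 77.9) and C130073E24Rik, a long non-coding RNA, at 30.5 CPM (18.7 to 47.2), between P2 and P22. Igfbp2 was lower at P22 in the other kept cells too, with a log2 ratio of -4.31, beside -4.91 in the members and -4.80 in the dividing cells. Pnoc was at -4.70, -3.89 and -4.17 in the same order. Arpp21 was at 0.19 in the other kept cells and -3.78 in the members.

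The 15 genes with the highest ratio included Gm10320, Egr1, Igfbp5, Hist1h1b, Cacng5, Gmnn, Cd9, Emp2, Ier2, Prox1, Sln, Msn, Klf6 and Btg2. Egr1, an immediate-early transcription factor, was at 177 CPM at P2 (170 to 184) and 817 CPM at P22 (800 to 835), 4.63-fold higher (4.43 to 4.84), and in 44.7% and 77.3% of cells. Igfbp5, another binding protein of insulin-like growth factors, was at 65.9 and 297 CPM and in 24.3% and 58.8% of cells. Cd9, a tetraspanin of the cell surface, was at 45.2 and 174 CPM. Cacng5, an auxiliary subunit of AMPA receptors, was at 13.1 and 56.0 CPM. In P12 replicate 1, Egr1 was at 797 CPM, Igfbp5 at 376 CPM, Cd9 at 192 CPM and Cacng5 at 91.6 CPM, all above P2. Hist1h1b, at 13.7 CPM there (6.29 to 26.1), was below its P2 value of 27.2 CPM. For Gmnn, at 7.64 CPM (2.48 to 17.8), and Sln, at 6.11 CPM (1.66 to 15.6), the intervals covered the P2 values of 10.9 and 10.5 CPM. Between the P2 animals, Egr1 was at 177 CPM in Y-positive and 160 CPM in Xist-positive cells and Igfbp5 at 63.8 and 80.9 CPM. Klf6, a zinc finger factor, was at 18.3 CPM (15.4 to 21.5) and 9.05 CPM (6.27 to 12.6), so that its P2 level differed between the animals.

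Glial cells also express several of these genes. Cd9 had a UMI in 99.4% of the P22 reference cells, Egr1 in 89.9% and Igfbp5 in 90.0%. Cacng5 had one in 10.1% of them, against 37.8% of the P22 members, and Prox1 in 7.42%, against 55.4%. Gm10320, a predicted gene on chromosome 13, had 0 UMIs at P2 and 544 at P22, at least 248-fold higher with 3 UMIs as the floor at P2. It was in 36.3% of the P22 members and 43.0% of the P22 reference cells, and its log2 ratio was 9.48 in the other kept cells, so that it was not particular to NBs.

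**Figure D2:**
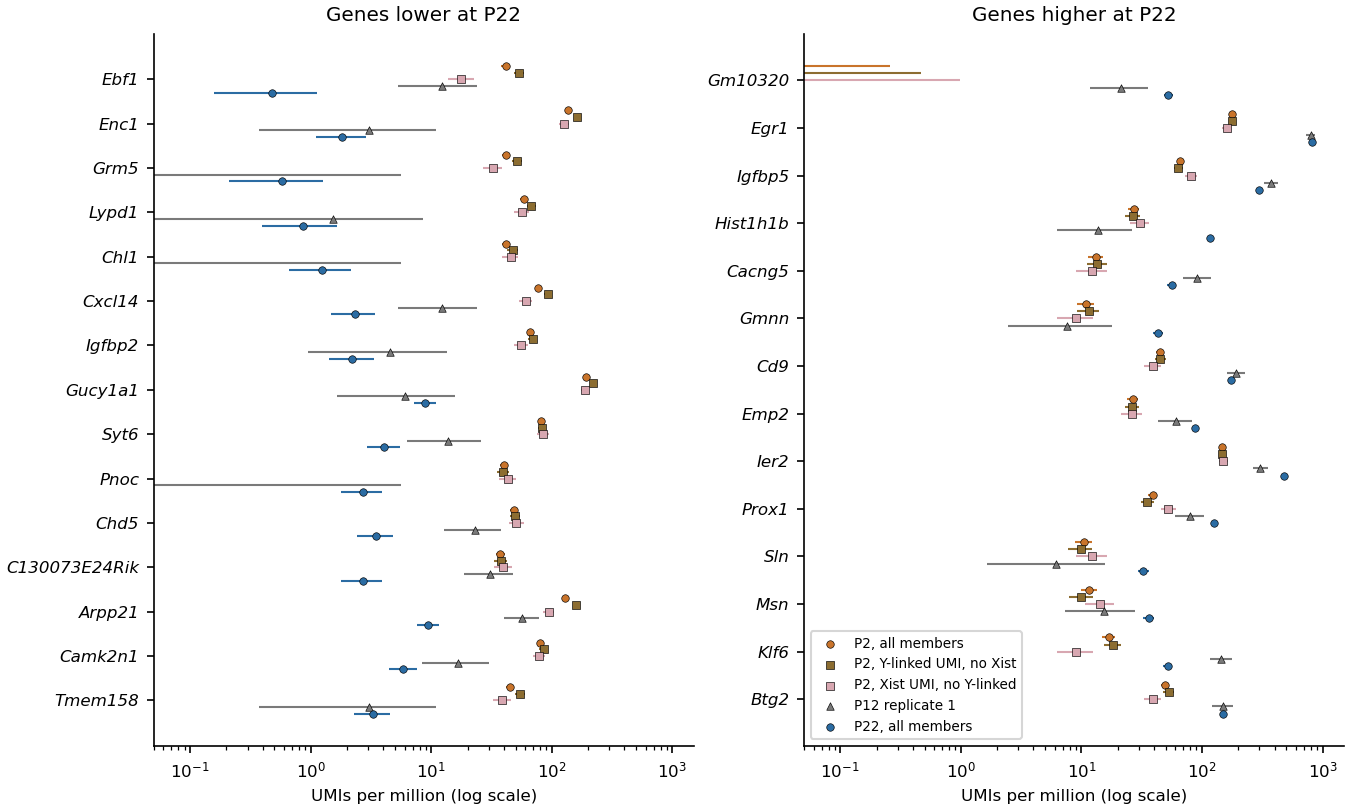
Levels (CPM, log scale, with exact Poisson 95% intervals as lines) of the genes named above with the lowest (left) and highest (right) ratios of P22 over P2, in all P2 members, in Y-positive and Xist-positive P2 members, in the 50 members of P12 replicate 1 and in all P22 members; values of 0 are drawn as the interval alone. The P2 symbols of Ebf1 lie apart, at 53.8 and 17.8, and those of Syt6 together; the P12 symbols of Egr1, Cd9 and Btg2 lie near P22 and that of C130073E24Rik near P2.

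Igfbp2 and Igfbp5 differed in opposite directions and are neighbours on chromosome 1. In GENCODE M21 (GRCm38) Igfbp2 spans 72824503 to 72852474 on the plus strand and Igfbp5 72857932 to 72874884 on the minus strand, so that their 3′ ends face each other across 5457 bases. Their products bind the same growth factors. At P2, 358 members had a UMI of Igfbp2 alone, 203 of Igfbp5 alone and 110 of both. At P22, 7 had Igfbp2 alone, 608 Igfbp5 alone and 11 both. More members had Igfbp2 than Igfbp5 at P2, and more had Igfbp5 at P22.

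Promoters are shown for this pair and for 2 further genes that were lower at P22, Fabp7 and Syt6, because the members of the gate share Dlx factors and because Nfia, described below, was higher at P22. The windows of 300 bases, 250 before and 50 after the start site, come from RefSeq (GRCm38.p6) and are written 5′ to 3′ on the gene's strand. Capitals mark TAATTA, the core that homeodomain factors bind, and TTGGC, the half-site of the NFI family, on either strand. Of 32851 such windows, 5.29% hold TAATTA and 46.7% hold TTGGC or its complement.
Igfbp2, chr1:72824230-72824529: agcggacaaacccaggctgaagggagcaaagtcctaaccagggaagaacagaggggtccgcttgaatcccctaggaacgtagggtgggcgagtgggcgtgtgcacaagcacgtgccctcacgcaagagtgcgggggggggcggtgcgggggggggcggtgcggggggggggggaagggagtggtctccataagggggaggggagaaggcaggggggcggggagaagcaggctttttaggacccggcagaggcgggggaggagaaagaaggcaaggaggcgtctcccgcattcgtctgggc
Igfbp5, chr1:72874816-72875115: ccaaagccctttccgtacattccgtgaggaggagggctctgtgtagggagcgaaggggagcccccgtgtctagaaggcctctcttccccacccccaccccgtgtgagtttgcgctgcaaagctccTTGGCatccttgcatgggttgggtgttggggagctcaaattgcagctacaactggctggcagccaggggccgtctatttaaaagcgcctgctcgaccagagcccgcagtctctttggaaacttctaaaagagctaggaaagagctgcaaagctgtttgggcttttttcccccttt
Fabp7, chr10:57784673-57784972: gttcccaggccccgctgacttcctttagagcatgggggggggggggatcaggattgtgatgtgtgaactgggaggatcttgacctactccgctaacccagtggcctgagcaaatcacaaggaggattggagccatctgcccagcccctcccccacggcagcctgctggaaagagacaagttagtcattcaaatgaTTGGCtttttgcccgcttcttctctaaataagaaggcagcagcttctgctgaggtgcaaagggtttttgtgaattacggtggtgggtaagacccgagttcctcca
Syt6, chr3:103574995-103575294: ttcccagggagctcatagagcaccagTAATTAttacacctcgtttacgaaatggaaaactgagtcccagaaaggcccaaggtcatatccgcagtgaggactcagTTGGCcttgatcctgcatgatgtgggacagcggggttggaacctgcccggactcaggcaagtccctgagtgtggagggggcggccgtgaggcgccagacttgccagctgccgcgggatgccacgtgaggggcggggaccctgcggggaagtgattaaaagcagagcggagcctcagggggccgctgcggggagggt

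The Igfbp2 window held neither motif. The windows of Igfbp5 and Fabp7 held TTGGC once each, and that of Syt6 held both motifs once. A match of so short a motif describes the letters and is no binding site.

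Among factors of the olfactory bulb lineage, several defining genes were close at both ages and others were lower at P22. Of 23 genes in that list, 13 were measured, 3 were at least 2-fold lower (beside 2.77% of all measured genes), none was higher, and their median log2 ratio was -0.22. Sp8 was at 404 CPM at P2 and 431 CPM at P22, Sp9 at 783 and 778 CPM, Meis2, the homeodomain partner of Dlx and Pax6, at 2110 and 1815 CPM, and Etv1, an ETS factor of bulb interneurons, at 250 and 353 CPM. Sp8 and Etv1 together were found in 59.2% of the P2 and 73.6% of the P22 cells. The 3 lower ones were Prokr2, the prokineticin receptor that guides NBs into the bulb, with 138 and 40.3 CPM, Pbx3, a homeodomain factor, with 313 and 120 CPM, and Tshz1, a zinc finger factor of bulb interneurons, with 262 and 114 CPM. Among members with an Sp8 UMI (1029 at P2 and 977 at P22), Tshz1 was at -0.98 on the log2 scale, just under 2-fold. Prokr2 and Pbx3 stayed past 2-fold there. Th and Calb2, markers of the adult bulb, were rare at both ages. All members held 10 and 5 Th UMIs, and Calb2 was in 9.70% and 3.13% of cells.

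Cells with Foxp2, Pbx3 and Tshz1 together were fewer at P22. They made up 19.8% of the P2 members (255 cells, interval 17.7 to 22.1) and 8.26% of the P22 members (87 cells, 6.67 to 10.1). With every cell thinned to 5000 UMIs, which left out 13 P2 and 17 P22 members, the shares were 16.1% and 5.21%. At P2 they were 16.8% of the Y-positive and 22.8% of the Xist-positive cells. In P12 replicate 1 they were 9 of 50 cells. The combination was chosen after levels at P2 and P22 had been seen.

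Factors of the CGE went apart. Prox1, a homeodomain factor of CGE interneurons and of other young neurons, was at 39.2 CPM at P2 (36.0 to 42.6) and 126 CPM at P22 (120 to 133), and in 23.0% and 55.4% of cells. Thinned to 5000 UMIs, it was in 13.4% and 38.4%. Adarb2, an RNA-editing family member of CGE interneurons, was at 274 and 120 CPM, Nr2f2, an orphan nuclear receptor of the CGE below the minimum of 20 CPM, at 24.8 and 6.56 CPM, and Cxcl14, a chemokine-like protein, at 76.8 and 2.31 CPM. The P2 cells with striatal genes described below held 87.6% of the P2 UMIs of Cxcl14. Without these cells the log2 ratio of Cxcl14 was -2.25 instead of -5.05, still past 2-fold. Of 12 genes in the list, 4 were measured, 1 was higher and 2 were lower. Adarb2 and Nr2f2 occurred together in 11.4% of the P2 and 2.56% of the P22 cells. Adarb2 with Nr2f2 was chosen after their values were seen. Among 12 genes of medial interneurons, 4 were measured and 1 passed 2-fold, Erbb4, the neuregulin receptor, with 99.6 and 42.1 CPM. Sst and Npy were at or below 7.55 CPM; the gate had left out cells with Lhx6 or Nkx2-1.

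**Figure D3:**
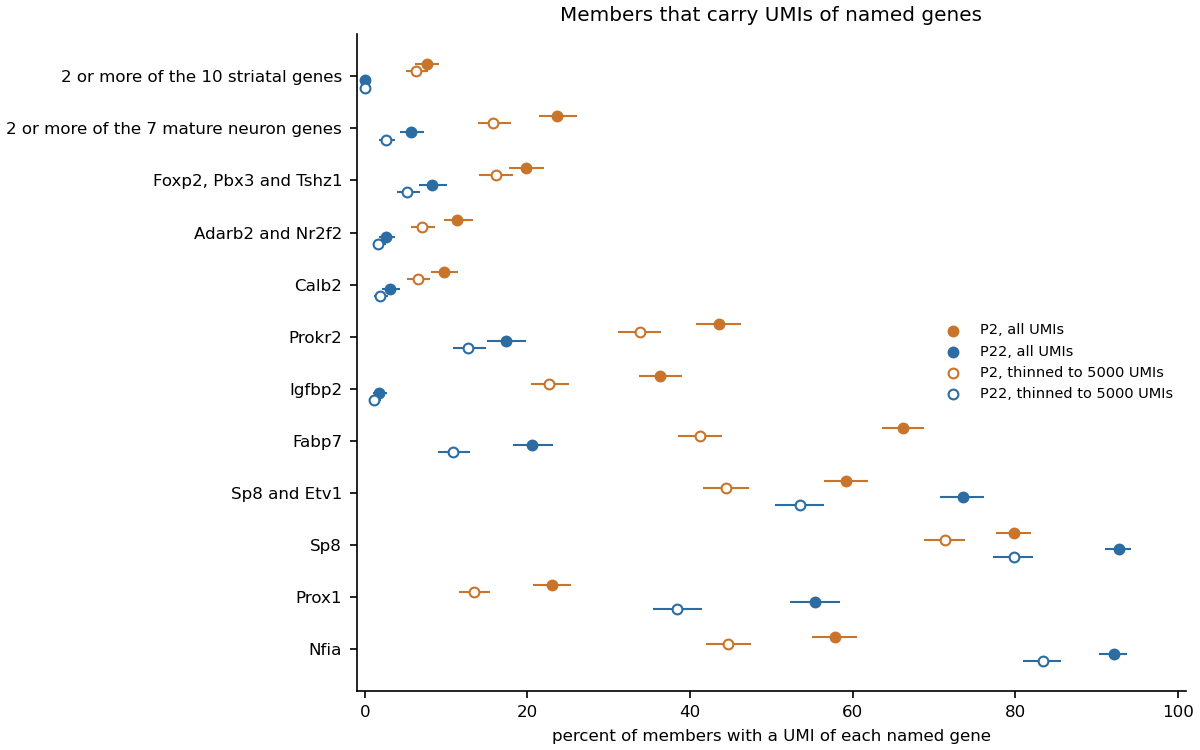
Share of members (x axis, percent, with exact binomial 95% intervals) that had a UMI of each named gene or combination, at P2 (orange) and P22 (blue), with all UMIs (filled) and after thinning every cell to 5000 UMIs (open). Combinations of striatal, mature neuron, Foxp2 and Adarb2 genes were more frequent at P2, and Prox1 and Nfia at P22, with all UMIs and after thinning.

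A small set of P2 cells carried genes of striatal projection neurons. Of the 17 genes in that list, 5 were measured, 4 were at least 2-fold lower at P22 (Ebf1, Foxp1, Pde10a and Foxp2) and none was higher. Foxp2 was at 134 and 39.3 CPM, and Pde10a, a striatal phosphodiesterase, at 111 and 27.1 CPM. The 98 cells counted next held 29.2% of the P2 UMIs of Foxp2 and 43.8% of those of Pde10a. Without them both genes stayed past 2-fold, at -1.47 and -1.41 on the log2 scale. Among members with an Sp8 UMI, however, Foxp2 was at -0.39, under 2-fold, while Pde10a stayed past it. To describe these cells, members with a UMI of at least 2 of 10 striatal genes (among them Ebf1, Isl1, Rxrg, Rarb, Adora2a, Tac1, Ppp1r1b, Drd1 and Zfp503) were counted, a set chosen after the P2 levels were seen. It held 98 of 1288 P2 members (7.61%, 6.22 to 9.19) and 0 of 1053 P22 members, where a count of 0 with a floor of 3 cells still allows a share of 0.285%. Both animals of P2 contributed, with 62 of 679 Y-positive and 24 of 355 Xist-positive cells. No P12 member was in the set, out of 50 and 6 cells.

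The 98 cells differed from the other P2 members also in genes that did not choose them. They had a median of 17394 UMIs, against 9860 in the rest, and held 13.2% of all P2 member UMIs. Foxp1, a forkhead factor of striatal neurons, was at 1944 CPM in them (1881 to 2008) and 39.8 CPM in the rest (36.3 to 43.4). Gap43 was at 1804 and 196 CPM, Bcl11b, a factor of striatal projection neurons, at 1149 and 150 CPM, and Enc1 at 942 and 13.1 CPM. Against this, Sp8 was at 7.49 CPM (4.09 to 12.6) and 464 CPM, and Etv1 at 4.28 and 287 CPM. Of the gate genes, Gad2 was at 179 and 718 CPM and Dlx5 at 114 and 563 CPM, and the median normalized Dcx level was 1.52 in them and 1.98 in the rest. Meis2 was alike, at 2134 and 2107 CPM. Scrublet placed 5 of the 98 among the 5% of P2 cells with the highest doublet scores. Of all 1288 P2 members, 21 lay there, so the 98 cells held more than their share of them. The part of doublets in the 98 cells was not tested.

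These cells held most of the P2 transcripts of several of the genes with the lowest ratios. They had 99.3% of the Ebf1 UMIs, 91.6% of those of Enc1, 93.1% of Grm5, 90.8% of Gucy1a1, 88.2% of Tmem158 and 88.1% of Foxp1. Ebf1 was among the 10 genes that chose these cells, so its values here follow from the choice. The other genes named here did not choose them. The same cells had 20.7% of the Igfbp2 UMIs, 31% of Syt6, 3.69% of Pnoc and 1.70% of C130073E24Rik. Over the 168 lower genes the median was 28.6%, against 12.6% over all measured genes. Without the 98 cells, 112 of the 168 lower genes and 63 of the 74 higher ones stayed past 2-fold, and 3 lower genes took the other sign. Foxp1 then had a log2 ratio of 0.44 instead of -2.43, and Ebf1 of 0.57 instead of -6.42. For Ebf1 this rests on 4 UMIs in the other P2 members and 5 at P22, near the floor of 3 UMIs, with overlapping intervals. Igfbp2 had -4.78 and Syt6 -3.99, nearly the values with them. In the sum over all members Foxp1 was 5.38-fold lower at P22, although the share of cells with a Foxp1 UMI was not lower, 28.9% at P2 and 35.1% at P22.

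**Figure D4:**
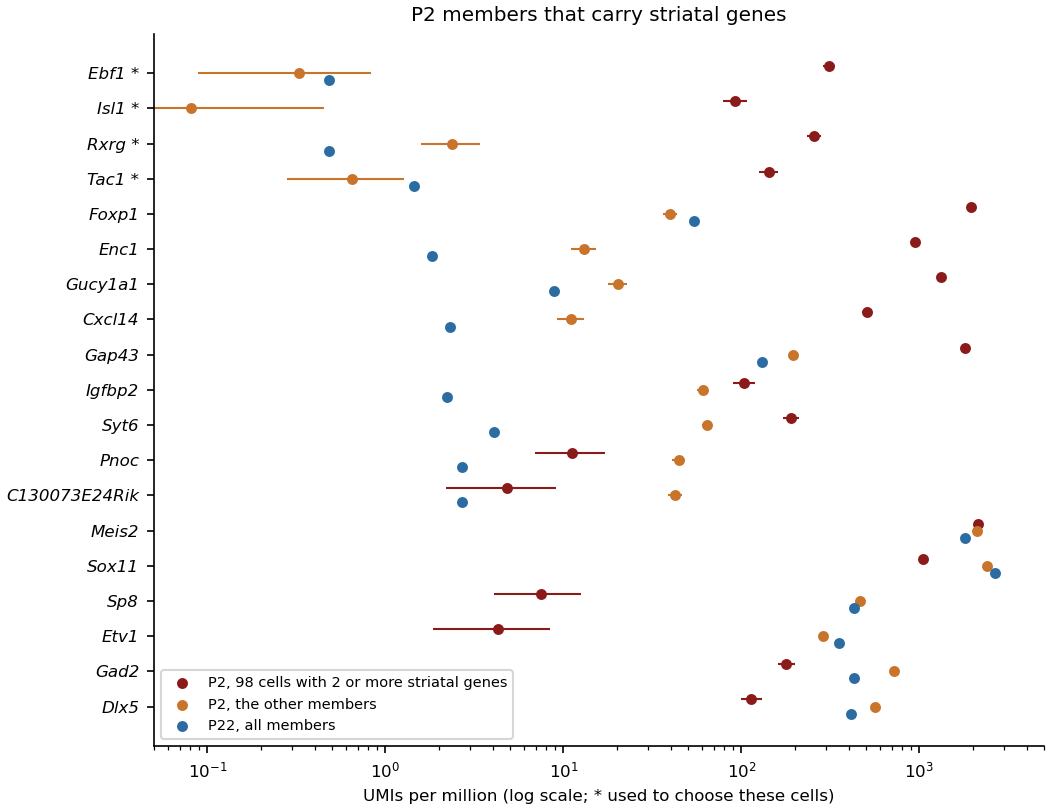
Levels (CPM, log scale, exact Poisson 95% intervals for the P2 groups) of selected genes in the 98 P2 members with at least 2 striatal genes (dark red), in the other P2 members (orange) and in all P22 members (blue); asterisks mark genes that chose the 98 cells, and Isl1, at 0 UMIs, has no P22 symbol. Foxp1, Enc1, Gucy1a1, Cxcl14 and Gap43 are far higher in the 98 cells than in either other group, while Igfbp2, Syt6, Pnoc and C130073E24Rik are also above P22 in the other P2 members.

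Genes of synapses and mature neurons leaned lower at P22. Of 32 in the list, 20 were measured, 4 were at least 2-fold lower, none higher, with a median log2 ratio of -0.45. Among the 4 were Syt4, with 73.2 and 14.6 CPM, Syt1, the calcium sensor of vesicle release, with 76.3 and 20.7 CPM, and the vesicle protein Sv2a, with 39.9 and 11.1 CPM. Without the 98 striatal cells Syt4 was at -0.93 on the log2 scale, under 2-fold. Among members with an Sp8 UMI, Syt1 was at -0.59. At least 2 of 7 mature neuron genes (among them Rbfox3, Syt1, Syt4, Camk2b and Nefl), a set chosen after their values were seen, occurred together in 23.7% of the P2 and 5.70% of the P22 members, and 91 of the 98 striatal cells were among them. Without cells with 2 or more striatal or mature neuron genes, Sv2a was at -0.99 and Syt1 at -0.05 on the log2 scale. Syt1 itself helped choose those cells. Slc32a1, the vesicular GABA transporter, was at 115 and 92.1 CPM, and Nrxn3, a presynaptic adhesion protein, at 795 and 1158 CPM.

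Among 33 subunits of GABA and glutamate receptors, 10 were measured, 3 were at least 2-fold lower and none higher, with a median of -0.57. Beside Grm5 these were Gabra2, with 43.0 and 7.23 CPM, and Grin2b, a subunit of NMDA receptors, with 125 and 42.7 CPM. Without the 98 striatal cells the median was -0.24. Without cells with 2 or more striatal or mature neuron genes, Grin2b was at -0.85, under 2-fold, while Grm5 and Gabra2 stayed past it. Of 25 channel genes, 6 were measured and 2 were lower, the potassium channel gene Kcnd3, with 29.1 and 12.6 CPM, and Cacna2d3, a calcium channel subunit, with 49.5 and 22.2 CPM. The Cacna2d3 call was lost without the striatal cells (-0.72 on the log2 scale) and after thinning (-0.73).

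Genes of migration and guidance hardly moved as a list. Of 42, 22 were measured, with 1 higher, 2 lower and a median of 0.02. The higher one was Plxna3, a semaphorin receptor, with 15.2 and 35.7 CPM. The lower ones were the ephrin receptor Epha5, with 74.5 and 18.3 CPM, and Adgrl3, a latrophilin, with 39.2 and 8.19 CPM. Ncam1, the carrier of polysialic acid on migrating NBs, was at 874 and 988 CPM, and Robo2, a Slit receptor, at 177 and 147 CPM.

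Regulators of later stages leaned higher. Of 22 Nfi, Sox and chromatin genes, 19 were measured, 2 were at least 2-fold higher and none lower, with a median of 0.33. Nfia, a nuclear factor I gene, was at 182 CPM at P2 (175 to 189) and 497 CPM at P22 (483 to 511), in 57.8% and 92.1% of cells, and 44.7% and 83.4% when thinned. The other family members moved less, Nfix with 908 and 1369 CPM, Nfib with 1694 and 1779 CPM and Nfic with 27.0 and 28.2 CPM. Sox5, an SoxD factor, was at 33.7 and 86.2 CPM. In P2, Nfia was at 171 CPM in Y-positive and 211 CPM in Xist-positive cells. In the other kept cells its log2 ratio was 0.09 and in the dividing cells 0.68, beside 1.45 in the members.

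Genes of the cell cycle leaned higher at P22 in members that all lacked Mki67 and Top2a. Of 34, 18 were measured, 4 were at least 2-fold higher and none lower, with a median of 0.47. They were Btg2, an antiproliferative gene that is also immediate-early, with 49.0 and 150 CPM, Ccnd2, the D-type cyclin of this lineage, with 2011 and 4311 CPM, and the replication helicase genes Mcm4, with 15.1 and 30.6 CPM, and Mcm6, with 33.1 and 66.8 CPM. Only Btg2 of these stayed past 2-fold without the striatal cells, where Ccnd2 was at 0.90, Mcm4 at 0.93 and Mcm6 at 0.84 on the log2 scale. The inhibitor Cdkn1b was also higher, with 220 and 385 CPM. Gmnn, the inhibitor of replication licensing, was at 10.9 and 43.3 CPM, and Hist1h1b, a replication-linked linker histone, at 27.2 and 117 CPM, but in the dividing cells Hist1h1b had a log2 ratio of 0.24. The gate read division from 2 genes, and the part of cells late in the cycle in these differences was not tested.

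Among 26 progenitor and Notch genes, 14 were measured, 1 was higher and 2 lower, with a median of 0.46. Notch1 was at 17.4 and 44.6 CPM. Fabp7, a fatty acid binding protein of radial glia, was at 170 and 49.6 CPM and in 66.2% and 20.6% of cells, and Id2, an inhibitor of basic helix-loop-helix factors, at 82.8 and 26.6 CPM. Fabp7 was lower in the other kept cells as well, at -3.15, beside -1.77 in the members, and was in 100% of the P2 reference cells.

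Of 19 immediate-early and stress genes, 13 were measured, 3 were higher and 1 lower, with a median of 0.33. Beside Egr1 and Btg2, Ier2 was at 148 and 478 CPM. Fosb was lower, with 38.5 and 18.5 CPM, but at -0.92 on the log2 scale, under 2-fold, without the striatal cells. Fos was at 419 and 547 CPM and Junb at 115 and 150 CPM, so that the genes of this group did not move as one. These genes also respond to handling of the tissue, and its part in their levels was not tested.

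Other lists had few or no genes past 2-fold. None of 8 measured survival genes passed 2-fold, with a median of -0.12 and Bcl2l1 at 52.0 and 47.8 CPM. None of 4 measured juvenile growth regulators did, with a median of 0.34. Of 6 measured nuclear receptor genes, Rorb was higher, with 31.8 and 67.8 CPM, but at 0.92 on the log2 scale, under 2-fold, without the striatal cells. Thra, the thyroid hormone receptor, was at 564 and 349 CPM. None of 84 ribosomal protein genes and none of 91 genes of oxidative phosphorylation passed 2-fold, with medians of 0.09 and -0.16.

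**Figure D5:**
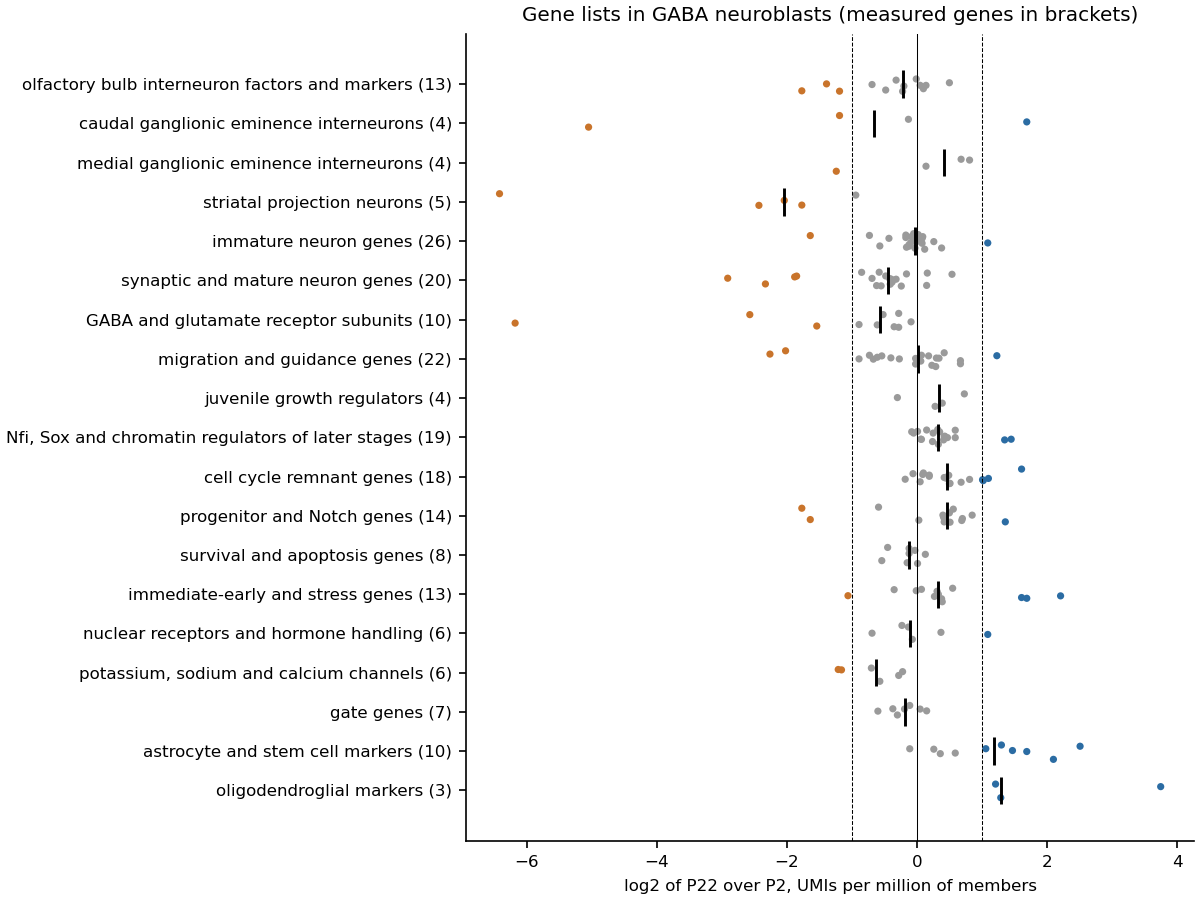
Log2 ratio of P22 over P2 (x axis) of every measured gene in each list drawn (one point per gene, number of measured genes in brackets); black bars are medians, dashed lines mark 2-fold, and blue and orange points are past it. Immature neuron and migration genes center on 0, striatal, receptor and channel genes lie lower, and cell cycle, Nfi and Sox genes lie higher, as do markers of astrocytes and oligodendrocytes.

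Markers of other cell types differed between the ages in these same cells. Of 14 astrocyte and stem cell markers, 10 were measured and 6 were at least 2-fold higher at P22, and their summed level was 1152 CPM at P2 and 2338 CPM at P22, beside 15270 and 16245 CPM in the other kept cells. Thbs4 was at 0 at P2. Of 9 oligodendroglial markers, 3 were measured and all 3 were higher, and their sum was 59.1 and 210 CPM, beside 315 and 5706 CPM. Of 15 microglial, vascular and blood markers none reached the minimum of 20 CPM. Their sum was 4.59 and 80.2 CPM, C1qa, C1qb, Csf1r and Tyrobp were at 0 at P2, and 87 P22 members had a UMI of C1qa, C1qb, Csf1r or Cx3cr1 against 2 at P2. The 7 ependymal markers summed to 6.71 and 18 CPM, with Tmem212 at 0 at both ages. These levels move with the higher genes that glia share, and their part in those differences was not tested. Some members had no UMI of 11 markers of other classes (763 at P2 and 267 at P22). Among them, Egr1, Igfbp5, Nfia, Prox1 and Cd9 were still at least 2-fold higher at P22. Of 70 genes past 2-fold that were named or listed, 8 fell under it there. Mcm4 (0.49 on the log2 scale), Mcm6 (0.72) and Rorb (0.92) were among these. Whether this choice of cells removes all transcripts of other cell types was not tested.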

How the data were processed

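Single-cell RNA-seq of the dorsal V-SVZ was analysed. The authors deposited UMI counts per gene and cell, made with Cell Ranger (3.1.0 per the labels, 5.0.1 in the P2 and P22 file headers) on mm10. Their methods keep cells with 2500 to 7500 genes and a figure legend 2000 to 8000; the latter was used. The members and gene lists were chosen with earlier results of these data known. UMIs were summed over members of an age and divided by their total (CPM), with exact Poisson intervals, conditional intervals for ratios and Clopper-Pearson intervals for shares. With 1 library per age no test was run. Genes with a mean of at least 20 CPM counted as measured, and those past 2-fold were called. Named were the 15 highest and 15 lowest ratios (leaving out gate, sex-linked and mitochondrial genes and markers of other cell types), list genes past 2-fold, defining list genes, and checks. Rps6k kinase genes were taken out of the ribosomal list. Doublets were scored with Scrublet (scanpy 1.11.5) and not removed in the values reported: 21 P2 and 23 P22 members lay among the 5% highest scores. Alternatives covered filters, gates, minimum, scaling (edgeR 4.0.16 TMM), thinning and subsets of members. The summing and ratio steps were tested on simulated data. Python 3.11.15, numpy 2.4.6, scipy 1.17.1 and R 4.3.3 were used. Results of some genes are not reported here.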

Additional observations from a re-analysis of the deposited data

Results flagged for a closer look

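Ncam2, a neural adhesion protein, was lower at P22 in the members and higher in the other kept cells of the same libraries. Its log2 ratio was -1.61 in the members, from 47.1 to 15.4 CPM, -1.33 in the dividing cells and 1.01 in the other kept cells. With 1 library per age the difference between these cells was not tested.

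Among barcodes with fewer than 2000 genes, which no comparison used, 63 at P2 and 80 at P22 met every other condition of the gate.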

How the results depend on the processing

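A single library per age limits every value, since age, animals and library cannot be told apart. No paired analysis was possible because no result comes from a test and each age has 1 library. Of 70 genes past 2-fold that were named or listed, 44 stayed past it in the same direction under all 21 alternatives. Of these, 5 alternatives, chosen after seeing the data, left out cells with striatal, mature neuron or microglial genes or used P2 cells of one sex. The share of members was 30.1% at P2 and 23.2% at P22 with 2500 to 7500 genes, 35.2% and 27.2% with the Dcx limit at 0.5, 14.5% and 9.57% with it at 2, 23.4% at P22 with 2 UMIs required, and 34.1% at P2 without Xist-positive cells. Genes higher and lower at P22 numbered 271 and 514 with a minimum of 5 CPM, 31 and 53 with 50 CPM, and 1162 and 1582 with none, when 42.3% of calls were higher against 30.6%. The lower genes numbered 102 among members with Sp8, 104 without the striatal cells and 75 without striatal or mature neuron cells, where 46.8% of calls were higher. Ebf1 took the other sign with the Dcx limit at 2 (0.63) and without Prox1, Nr2f2, Isl1 or Foxp2 cells (0.62). It did so too without the striatal cells (0.57) and without striatal or mature cells (0.77). These signs of Ebf1 rest on few counts, since all P22 members together held 5 of its UMIs. Foxp1 took the other sign without the striatal cells (0.44) and without striatal or mature cells (0.74). Foxp2 did so where cells with Foxp2 itself were left out (1.03). The causes were not tested beyond what each setting removes.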
